A study of Mus musculus with 6 samples.

Results

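The 10 genes described here encode contractile proteins of smooth muscle (Acta2, Actg2, Tagln, Cnn1, Myl9 and Tpm2) and secreted or nuclear proteins used as readouts of the transcriptional regulators YAP and SRF (Ccn1, Ccn2, Ankrd1 and Thbs1). They are 10 of 19937 genes measured in mouse embryonic stem cells, each with 1 probe set whose only gene symbol is that gene. They were put together because Acta2 and Tagln were lower and Ccn1 and Thbs1 higher after knockdown of Trim71, an RNA-binding ubiquitin ligase of early embryos. The members were thus chosen by the differences between control and knockdown arrays, which are given for them as a description, with errors. Counts of members past a threshold are likewise a description, and nothing is read from them. RNA was hybridised to 6 Affymetrix arrays of a single colour, with 3 arrays for each group, and each value is a log2 expression level from RMA, which corrects the background, equalises the arrays and summarises the probes of a set.

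The knockdown cells had received 3 siRNAs directed at Trim71 with Dharmafect1, a lipid reagent, and were collected 72 h later. The labels call the control cells wild type and parental, while the protocol names a non-targeting siRNA, so it cannot be told from them whether the control cells were transfected. Neither the cell line nor the presence of feeder cells is given in the labels, and nothing there says that the 3 arrays of a group came from separate cultures. The spread between arrays may therefore be technical.

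Smooth muscle contracts when myosin II pulls on actin filaments, and non-muscle cells build stress fibres from related proteins. SRF binds a short DNA element, the CArG box, in the promoters of many contractile genes. Its cofactors MRTF-A and MRTF-B are held in the cytoplasm by free actin monomers and enter the nucleus when these are used up. YAP and TAZ are held back by the Hippo kinases, bind DNA through TEAD factors, and are active in spread cells under tension, with Ccn1, Ccn2 and Ankrd1 among their best known targets. Embryonic stem cells are not contractile, and in their cultures the contractile genes are usually read as markers of differentiated or feeder cells.

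The promoters of 6 members were found in a RefSeq table of GRCm38.p6, which holds the 250 bases before and 50 after each annotated start, and the other members were Actg2, Tagln, Ccn2 and Thbs1. The stretches before the start of 4 genes are shown because they hold the CArG boxes or TEAD elements searched for, which stand in capitals. The first runs over chr19:34255374-34255623 on the minus strand, the second over chr2:156775214-156775463 on the plus strand, the third over chr3:145649986-145650235 and the fourth over chr19:36119845-36120094, both on the minus strand. All are written 5′ to 3′ and end at the base before the start.
Acta2: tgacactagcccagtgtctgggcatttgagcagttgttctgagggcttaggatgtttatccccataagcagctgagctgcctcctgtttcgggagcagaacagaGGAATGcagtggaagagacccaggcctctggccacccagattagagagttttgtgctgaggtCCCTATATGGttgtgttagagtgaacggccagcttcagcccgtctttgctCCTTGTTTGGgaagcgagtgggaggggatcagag
Myl9: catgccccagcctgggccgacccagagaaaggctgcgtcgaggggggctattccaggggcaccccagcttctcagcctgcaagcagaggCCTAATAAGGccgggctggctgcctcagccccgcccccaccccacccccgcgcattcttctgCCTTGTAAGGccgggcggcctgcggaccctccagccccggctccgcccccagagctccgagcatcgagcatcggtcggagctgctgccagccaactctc
Ccn1: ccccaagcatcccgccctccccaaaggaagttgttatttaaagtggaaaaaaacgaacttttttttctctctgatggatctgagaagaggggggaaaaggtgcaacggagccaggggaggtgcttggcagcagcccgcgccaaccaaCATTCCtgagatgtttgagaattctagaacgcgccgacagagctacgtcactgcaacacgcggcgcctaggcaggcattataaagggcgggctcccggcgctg
Ankrd1: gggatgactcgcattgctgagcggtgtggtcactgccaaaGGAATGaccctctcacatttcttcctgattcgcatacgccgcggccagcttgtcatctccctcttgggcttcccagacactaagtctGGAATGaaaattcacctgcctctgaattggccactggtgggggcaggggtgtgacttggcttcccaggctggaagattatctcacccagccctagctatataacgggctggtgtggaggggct

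A full CArG box was found in the Myl9 window, from position −161, and in 1.63% of 32851 windows of the table. When 1 of the inner 6 bases of the box was allowed to be G or C, the share of all windows was 9.98%, and the Acta2 window held a pair of such elements, from positions −84 and −34. Myl9 had a further one from −99. The TEAD core GGAATG, searched on both strands, was present in 14.7% of all windows and in 3 of the 6 member windows. It began at −146 in Acta2 and at −210 and −123 in Ankrd1, and in Ccn1 it lay on the other strand from −103, where it reads as the capitals shown. The Cnn1 and Tpm2 windows held none of these letters. The AP-1 element TGANTCA was in 0 of the 6 windows and in 7.81% of all, and TATAAA was in the Ccn1 window from −25 and in 13.6% of all. Such a match says only that the letters are there.

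**Figure D1:**
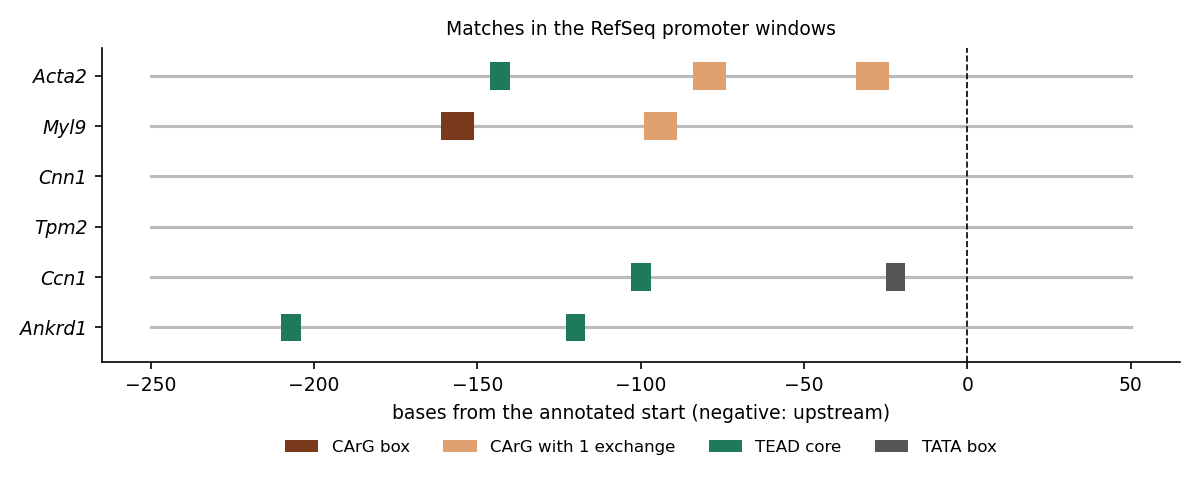
Positions of the searched elements in the promoter windows of 6 member genes, in bases from the annotated start (dashed line). Acta2 and Myl9 hold CArG-type elements, Acta2, Ccn1 and Ankrd1 hold TEAD cores, and Cnn1 and Tpm2 hold none.

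Before the members, 3 facts of the arrays bear on every value. Trim71 itself averaged 10.50 ± 0.018 (SD, n = 3) on the control and 8.98 ± 0.025 (SD, n = 3) on the knockdown arrays, so 34.9% of its signal was left. An adjusted p under 0.05 in limma was called a change. Limma fits a linear model to each gene and moderates the variances with those of all genes. By this rule 675 genes were higher and 428 lower, 5.53% of all. The split became 779 and 763 when quantile normalization was repeated and 527 and 616 when each array was centred on its median. Knockdown array 3 stood apart, with an upper quartile of 8.42 against 8.32 to 8.35 on the other arrays, and without it the counts were 603 and 699. The 10 embryonic stem cell markers had log2 levels between 10.10 and 12.96. Their mean lay at 11.61 to 11.65 on the control arrays and at 11.73 to 11.78 on the knockdown arrays. Of the 10, 2 were called higher and 0 lower, beside 3.39% and 2.15% of all genes.

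The actin gene Acta2, which encodes smooth muscle alpha-actin, showed the largest difference among the members. Its log2 level was 8.97, 9.18 and 9.31 on control arrays 1 to 3 and 8.45, 8.45 and 8.46 on knockdown arrays 1 to 3. The groups did not overlap, and the control arrays were spread over a much wider range than the knockdown arrays, with SDs of 0.17 and 0.0094. The log2 fold change was −0.70 ± 0.084 (SE), which left 61.6% of the control level, and 20 of the 19937 genes had a more negative value. With each array left out in turn it lay between −0.79 and −0.62.

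Tagln encodes transgelin, also called SM22-alpha, an actin-binding protein of stress fibres. It read 8.66, 8.67 and 8.73 on the control arrays and 8.23, 8.41 and 8.39 on the knockdown arrays. The groups were again apart, and here the spread was larger among the knockdown arrays, of which array 1 was lowest. Its log2 fold change was −0.34 ± 0.061 (SE), or 78.9% of the control level.

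Myl9 encodes the regulatory light chain through which myosin II is switched on by phosphorylation. Its levels were 7.27, 7.31 and 7.23 in control cells and 7.02, 7.03 and 7.17 in knockdown cells. All knockdown arrays were below all control arrays, though knockdown array 3 came close to the lowest control. The log2 difference between the means was −0.20 ± 0.058 (SE).

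The other contractile members did not separate the groups. Actg2, the enteric gamma-actin of smooth muscle, was the dimmest, with 5.18, 5.09 and 4.96 against 5.10, 5.01 and 4.64. A single low array, knockdown array 3, made most of its mean difference of −0.16 ± 0.12 (SE), which was −0.01 without that array. Cnn1, calponin 1, which binds actin and slows myosin, read 7.01, 7.16 and 7.13 against 7.20, 7.12 and 7.12, a difference of 0.05 ± 0.058 (SE). Tpm2, a tropomyosin that lies along the actin filament, had a mean of 7.42 in both groups, with control arrays at 7.43, 7.39 and 7.46 and knockdown arrays at 7.36, 7.44 and 7.48. Its difference of 0.00027 ± 0.052 (SE) has no direction.

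**Figure D2:**
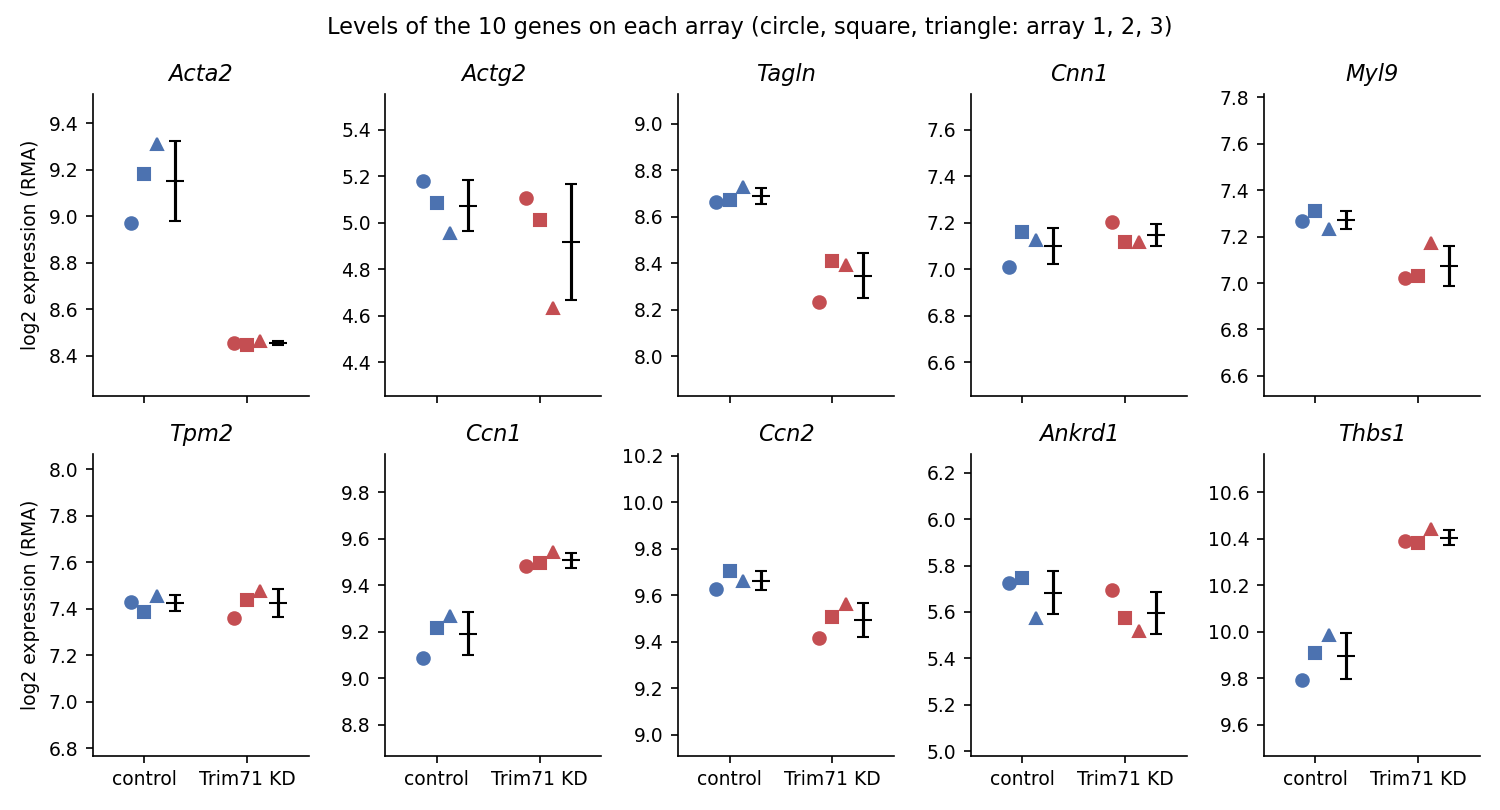
Log2 expression of each member on the 3 control (blue) and 3 knockdown (red) arrays, with the group mean and SD in black, on axes of equal span. Acta2, Tagln, Myl9 and Ccn2 lie lower in all knockdown arrays, Ccn1 and Thbs1 lie higher, and the groups of the other 4 genes overlap.

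Among the secreted members, Thbs1, a matrix glycoprotein that binds cells and activates latent TGF-beta, was the brightest. It read 9.79, 9.91 and 9.99 on the control arrays and 10.39, 10.38 and 10.44 on the knockdown arrays. The gap between the groups was wider than the range within either. The log2 fold change of 0.51 ± 0.061 (SE) is a level 1.42-fold higher, and 110 genes had a larger one. The fits with an array left out gave 0.46 to 0.56.

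Ccn1, formerly Cyr61, encodes a matricellular protein that binds integrins. Its levels were 9.09, 9.22 and 9.27 in control cells and 9.48, 9.50 and 9.54 in knockdown cells. Control array 1 was lowest and knockdown array 3 highest, as for Thbs1, and the groups were apart. The log2 fold change was 0.32 ± 0.059 (SE), or 1.25-fold.

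Ccn2, formerly Ctgf, belongs to the same protein family as Ccn1 and had a lower mean after the knockdown. It read 9.63, 9.70 and 9.66 on the control arrays and 9.42, 9.51 and 9.56 on the knockdown arrays, without overlap. The mean difference was −0.17 ± 0.055 (SE). Within each array, the log2 difference between the Ccn1 and the Ccn2 signal was −0.54, −0.49 and −0.39 in control cells and 0.07, −0.01 and −0.02 in knockdown cells. These paired values moved by 0.49 between the groups, which shows unequal change of the genes and not which of them is the more abundant.

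Ankrd1, an ankyrin repeat protein of the nucleus and of cardiac sarcomeres, was dim and did not separate the groups. Its levels were 5.73, 5.74 and 5.58 against 5.69, 5.57 and 5.52, with a difference of −0.09 ± 0.069 (SE).

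Of the 10 members, 2 were called higher and 2 lower, and 6 were not called, where 5.53% of all genes were called in either direction, 3.39% higher and 2.15% lower. Control and knockdown values were fully apart for 6 members, 2 higher and 4 lower, beside 25.5% of all genes, 14.7% higher and 10.8% lower. The median log2 fold change was −0.18 over the 6 contractile members and 0.11 over the 4 others, beside 0.0048 over all genes. The 4 called are the genes that led to the choice, and they enter each of these counts and medians, so nothing is read from any of them beside all genes. With each array left out in turn, the log2 fold change lay between −0.37 and −0.29 for Tagln, between 0.27 and 0.36 for Ccn1 and between −0.24 and −0.17 for Myl9. Acta2 and Thbs1 were called in all 6 of these fits, but Tagln in 2 and Ccn1 in 1. Myl9, not called with all arrays, was called in 1.

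**Figure D3:**
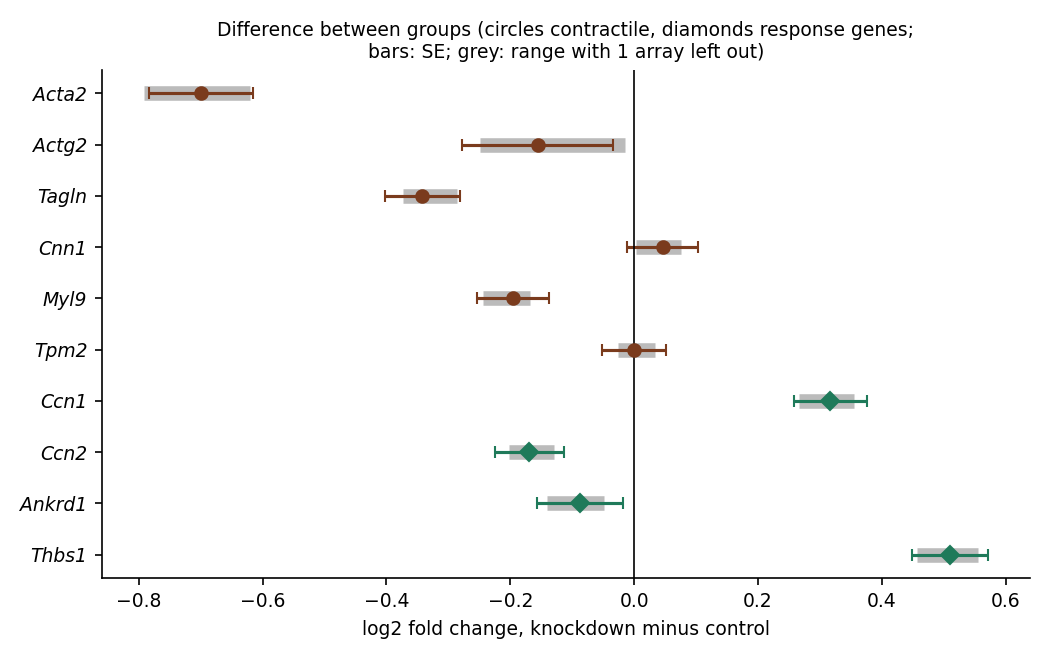
Log2 fold change of each member, knockdown minus control, with its SE; the grey band spans the estimates with 1 array left out. Acta2 at −0.70 and Thbs1 at 0.51 lie farthest from 0, and the band of Actg2 reaches −0.01.

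The arrays of a group also differed among themselves, and here some members with opposite differences between the groups went together. Over the 45 pairs of members, Pearson's r of the deviations from the group means had a median of 0.20. The 3 pairs above 0.9 were those among Acta2, Ccn1 and Thbs1, and 1 pair was below −0.9. Many genes outside the members went along as closely. With Acta2, 96 genes had a higher r than Ccn1 had and 58 a higher r than Thbs1 had. With Ccn1, 27 genes had a higher r than Thbs1 had. Acta2 and Tagln had an r of 0.30. Control array 1 was lowest and control array 3 highest for Acta2, Tagln, Ccn1 and Thbs1 alike, with deviations from the control mean of −0.18 and 0.16 for Acta2, −0.10 and 0.08 for Ccn1 and −0.10 and 0.09 for Thbs1. Actg2 had the opposite order, at 0.10 on control array 1 and −0.12 on control array 3. Among the knockdown arrays, array 3 was highest for Acta2, Ccn1 and Thbs1, by 0.01, 0.04 and 0.04, and lowest for Actg2, by −0.28.

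On the control arrays, differences between 2 signals of the same array could be steadier than the signals themselves. Thbs1 exceeded Ccn1 by 0.70 ± 0.012 (SD, n = 3) on the control arrays and by 0.90 ± 0.012 (SD, n = 3) on the knockdown arrays, while the SDs of the single genes were 0.092 to 0.098 on the control arrays. Acta2 minus Thbs1 was −0.74 ± 0.074 (SD, n = 3) in control and −1.95 ± 0.023 (SD, n = 3) in knockdown cells, a shift of −1.21. For Acta2 minus Tagln, whose own SDs on the control arrays were 0.17 and 0.034, the difference still had an SD of 0.14 there. The variation that Acta2 shared with Thbs1 and Ccn1 among control arrays ran in 1 direction, while their differences between the groups ran in opposite directions. Those opposite differences, and with them the shift of −1.21, only restate how the genes were chosen. The shared variation rests on 3 control arrays, since Acta2 hardly varied among the knockdown arrays. What the arrays differed in was not tested.

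**Figure D4:**
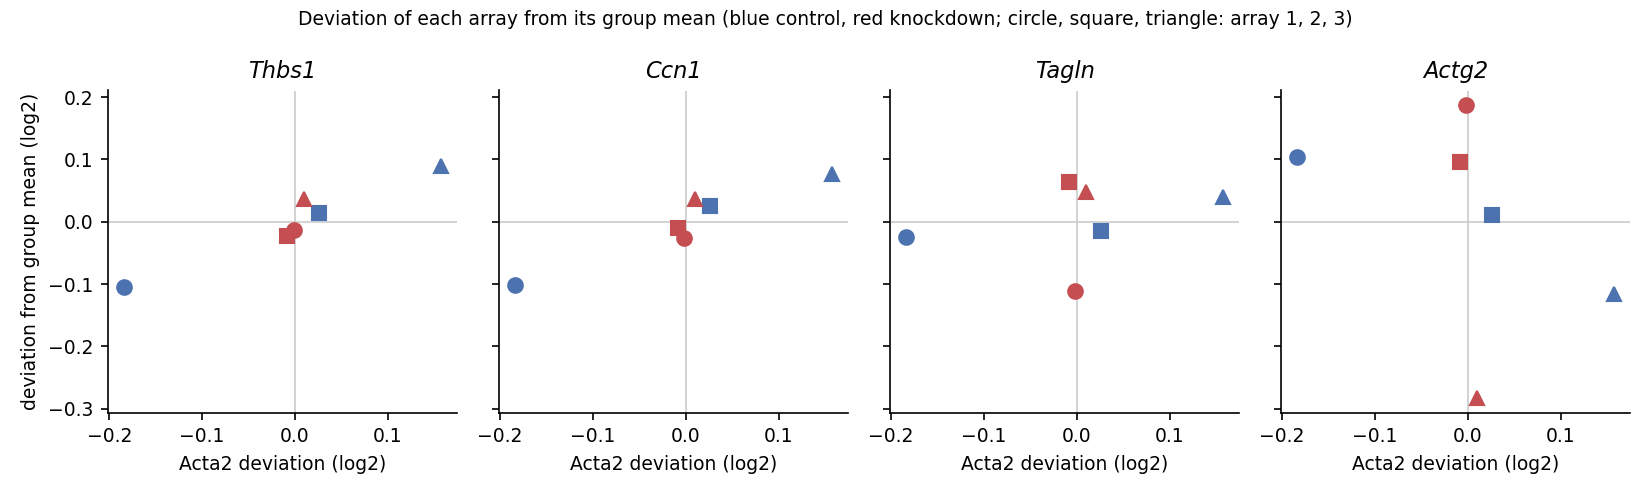
Deviation of each array from its group mean for Thbs1, Ccn1, Tagln and Actg2, against that of Acta2, in log2 units, with control arrays in blue and knockdown arrays in red. Thbs1 and Ccn1 rise with Acta2 over the control arrays and Actg2 falls, while the knockdown arrays hardly differ in Acta2.

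The genes most like 4 members over the 6 arrays were sought among 1014 genes whose SD over all arrays was at least 0.2. Likeness was Pearson's r of the log2 levels, which is given as a description, since the arrays form 2 groups and the difference between these makes most of it. For Acta2 the 3 nearest were Prkd1, a kinase gene, at r = 0.983, Tceal1 at 0.982 and Dcaf12l1 at 0.982. For Tagln they were Nipa1, a magnesium transporter gene, at 0.995, Steap2, a metalloreductase gene, at 0.993 and Spin4 at 0.990. For Ccn1 the nearest were Sema3c, a semaphorin gene, at 0.998, Lxn at 0.996 and Rpgrip1l at 0.996. For Thbs1 they were Cxadr, which encodes the coxsackievirus and adenovirus receptor, at 0.9999, Ermp1 at 0.998 and Sema3c at 0.997. Of the members, Acta2 and Thbs1 had an SD of at least 0.2, so the other 8 could not appear. Ccn1 and Thbs1 had an r of 0.993 with each other.

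The neighbours of the members on the chromosomes were looked at after the members' values were known. Of 20 flanking protein-coding genes in the RefSeq order, 18 were measured, and 3 of these were called, each lower, where 2.15% of all genes were called lower. Stambpl1, a deubiquitinase gene next to Acta2, fell from 7.35, 7.20 and 7.31 to 6.74, 6.73 and 6.82, with a log2 fold change of −0.52 ± 0.057 (SE) and, in limma, an adjusted p of 0.0046. Ddah1, next to Ccn1, encodes an enzyme that degrades methylated arginines and fell by 0.38 (adjusted p = 0.00559), against the direction of Ccn1. Both were called with any array left out. Dguok, next to Actg2, fell by 0.26 (adjusted p = 0.0422) and was called in 1 of the 6 fits with an array left out.

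Among close relatives of the members, Acta1 was called, and 5 of 7 relatives of calponin, transgelin and tropomyosin lay lower on all knockdown arrays without being called. Acta1, the skeletal muscle actin, fell from 8.01, 8.27 and 8.18 to 7.41, 7.66 and 7.75, with a log2 fold change of −0.55 ± 0.10 (SE) and, in limma, an adjusted p of 0.0238. The groups did not overlap, and Acta1 was called in 2 of the 6 fits with an array left out, with an adjusted p of up to 0.0929. Muscle actin genes are very similar in their coding sequence, and whether the probes tell Acta2, Acta1, Actg2 and the cardiac Actc1 apart was not tested; Actc1 was at 0.01 and Actg2, as given above, overlapped between the groups. The cytoplasmic Actb, named with Actc1 as the other measured relative, was at −0.04. Of the 7 calponin, transgelin and tropomyosin relatives, Cnn2, Cnn3, Tagln2, Tagln3 and Tpm4 were lower without overlap, at −0.17, −0.13, −0.13, −0.14 and −0.09, and Tpm1 and Tpm3 higher without overlap, at 0.06 and 0.05, where 10.8% and 14.7% of all genes were so. Limma called 0 of these 7, with a median of −0.13, and of 10 CCN, thrombospondin and ankyrin repeat relatives 0, with a median of 0.02. At an unadjusted p under 0.05 the counts were 3 and 1, and with a trended and robust prior 3 and 0 were called. Over all 19937 genes that prior called 1213 higher and 854 lower, where limma without it called 675 and 428. Counts under that prior, here and in the lists below, belong beside those larger numbers and not beside 5.53%. The share of all genes at an unadjusted p under 0.05 is not given here.

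Further lists set the members beside the machinery around them. Over all 11 lists, 125 genes other than the members were measured, and 8 were called higher and 3 lower, 8.8% against 5.53% of all genes, with a median log2 fold change of 0.03. Of 10 genes of myosin II and its control, 15 other smooth muscle genes and 15 cytoskeletal targets of MRTF and SRF, 0 were called in limma, with medians of 0.04, 0.03 and −0.04. At an unadjusted p under 0.05 the counts were 0, 3 and 3, and with a trended and robust prior 0, 1 and 3 were called. Of the 15 smooth muscle genes, Nexn, an actin-filament protein gene chosen after its value was seen, had the most negative value at −0.62 ± 0.17 (SE), with an adjusted p of 0.0828.

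Among the regulators and early targets, 3 of 10 immediate early targets of SRF and 2 of 20 Hippo pathway genes were called, or 30% and 10% beside 5.53% of all genes. SRF and its 5 cofactors had 0 of 6 called in limma (2 at an unadjusted p under 0.05 and 2 with a trended and robust prior). Srf was at 0.06, Mrtfa at 0.08 and Mrtfb at −0.06, which are named for their role. The largest differences of the 6 were those of Elk4 at 0.39 and Elk1 at 0.16, with adjusted p of 0.0576 and 0.0804 in limma. Without overlap, 3 of the 6 were higher and 0 lower, where 14.7% and 10.8% of all genes were so. Among the immediate early targets, Egr1 fell by 0.48 ± 0.054 (SE) with an adjusted p of 0.00483, and Junb and Mcl1 rose by 0.26 and 0.22. Of the Hippo pathway genes, Mob1b, a kinase activator, rose by 0.42 (adjusted p = 0.00793) and the scaffold gene Wwc1 by 0.36 (adjusted p = 0.0207), while Yap1 at 0.12 and Tead1 at 0.19, also named for their role, did not pass. Egr1 and Mob1b were called with any array left out, Wwc1 in 2 of 6 fits, and Junb and Mcl1 in 0. At an unadjusted p under 0.05 in limma the counts were 4 immediate early targets and 7 Hippo pathway genes. With a trended and robust prior 3 and 4 were called. Of the 20 Hippo pathway genes, 8 were higher without overlap and 0 lower.

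Of 20 YAP and TAZ targets other than the members, 3 were called higher and 1 lower, 20% beside 5.53% of all genes. Igfbp3, a binding protein of insulin-like growth factors, rose by 0.45, the stress gene Gadd45a by 0.32 and the receptor kinase gene Axl by 0.26, and Myof, a membrane repair gene, fell by 0.33. Each was called in 1 or 2 of the 6 fits that left out an array, and the highest adjusted p in them was 0.131. In TGF-beta signalling, to which Thbs1 and Acta2 are tied as activator and target, 1 of 13 genes was called (7.69%), the matrix gene Tgfbi at 0.48 ± 0.066 (SE, adjusted p = 0.0097), called in 5 of the 6 fits with an array left out. At an unadjusted p under 0.05 in limma the counts were 6 YAP and TAZ targets and 5 TGF-beta signalling genes. With a trended and robust prior 5 and 4 were called, beside 1213 higher and 854 lower over all genes.

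**Figure D5:**
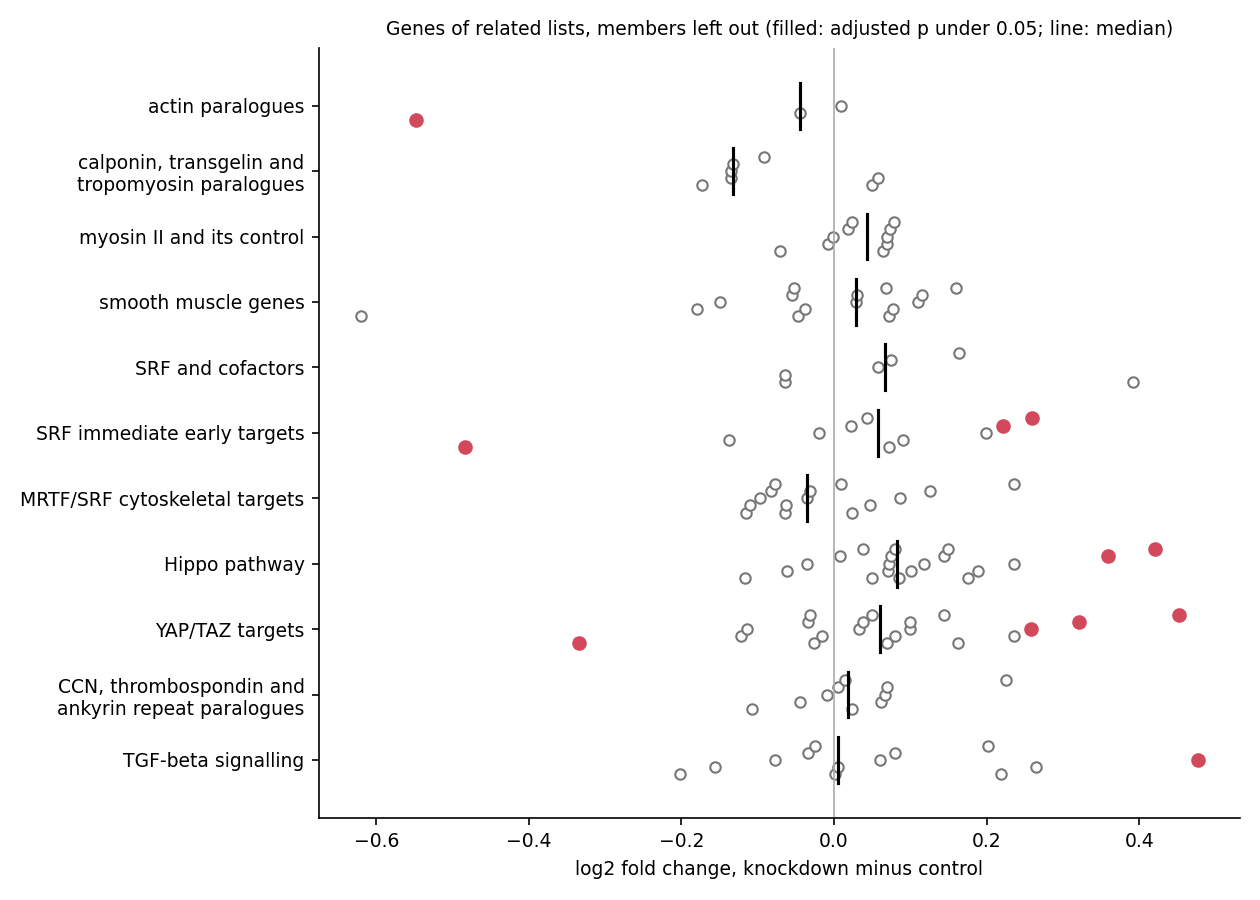
Log2 fold change of each gene in 11 lists around the members, which are left out; filled points have an adjusted p under 0.05 and the line is the list's median. Calls lie on both sides of 0. The lists of myosin II, smooth muscle genes, MRTF/SRF cytoskeletal targets, and SRF and its cofactors hold none. The lists of calponin, transgelin and tropomyosin relatives and of CCN, thrombospondin and ankyrin repeat relatives hold none either.

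The mean levels of 4 lists of cell type markers overlapped between the groups, for smooth muscle by a narrow margin. Some single markers, such as Smtn, did not overlap. The mean log2 level of 14 fibroblast or feeder markers was 5.93 to 6.02 on the control arrays and 5.92 to 6.02 on the knockdown arrays. For 5 smooth muscle markers, Myocd, Myh11, Smtn, Lmod1 and Des, it was 6.43 to 6.46 and 6.46 to 6.50, and for 10 cardiac muscle markers 6.26 to 6.32 and 6.26 to 6.34. For 8 endoderm markers it was 5.88 to 5.95 and 5.83 to 5.92. Limma called 0 genes of these 4 lists, and 1 fibroblast and 1 cardiac marker had an unadjusted p under 0.05, while a trended and robust prior called 1 fibroblast marker. Array values have no 0, so absence of these markers cannot be stated. The mean of the 10 embryonic stem cell markers lay higher on all knockdown arrays, while 2 single markers, Zfp42 and Fgf4, were called and 4 overlapped between the groups. Zfp42 was called in 1 and Fgf4 in 2 of the 6 fits with an array left out. At an unadjusted p under 0.05 in limma 5 of the 10 passed, and a trended and robust prior called 5. Over all genes that prior called 1213 higher and 854 lower. The part of these markers in the members' values was not tested. In such bulk RNA, fewer cells with a transcript and less transcript per cell cannot be told apart.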

How the data were processed

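The deposited table holds a log2 expression value for every probe set on every array. The authors used RMA and affy, per the submitters' processing notes, with versions not given in the sources used here, nor is a genome build. Per the labels' protocols, 100 ng of RNA went into whole-transcript amplification. The number of arrays limits the precision.

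Gene names came from GEO's annotation of the platform. Of 34760 probe sets, 21640 had 1 symbol, 1321 several and 11799 none, and each gene was represented by its brightest probe set (19937 genes). Group was the only term in limma 3.58.1 (R 4.3.3), with Benjamini-Hochberg adjustment over all genes. The fit was tested on simulated data. Tables and plots used Python 3.11.15, pandas 2.3.3 and matplotlib 3.10.9.

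Named genes are the members, Trim71, called genes of the lists (at most 6 a list) and the 3 genes most like each of 4 members, without predicted, receptor-cluster and small RNA genes. Uncalled list genes and neighbours were named in addition, for their role or after their values were seen. The members and lists were chosen with earlier results of these data known. 1 further list is not reported here. Alternatives were a replicate block, each array left out, a repeated quantile normalization, median centring, the mean of probe sets, the brighter genes, array weights, a trended and robust prior and an adjusted p under 0.01.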

Additional observations from a re-analysis of the deposited data

How the results depend on the processing

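The 14 alternatives moved the counts as follows, and nothing is read from those of members, which the same differences chose. With an array left out, 148 to 603 genes were called higher and 101 to 699 lower, of the members 1 to 2 and 1 to 3, and of the 125 pathway genes 1 to 5 and 1 to 5; the largest counts of lower genes came without knockdown array 3. The labels do not say whether same-numbered arrays were handled together. Deviations of same-numbered arrays correlated at −0.02, −0.15 and −0.24, and those of differently numbered arrays at −0.23 to 0.28. Since the 3 deviations of a group sum to 0, such values cannot settle whether arrays were paired. The replicate block gave 171 higher and 108 lower genes, 1 and 1 members and 1 and 2 pathway genes. An adjusted p under 0.01 gave 152 and 94 genes, 1 and 1 members, and 2 and 1 pathway genes. The brighter part of the genes gave 1124 and 766 genes, 4 lower members with Myl9 and Ccn2 added, and 17 and 5 pathway genes. The trended and robust prior gave 1213 and 854 genes, 3 lower members with Ccn2 added, and 16 and 9 pathway genes. Array weights gave 1114 and 1058 genes, 3 lower members with Myl9 added, and 15 and 9 pathway genes. A repeated quantile normalization gave 763 lower genes and 3 lower members, with Myl9 added. Causes were not tested. Actg2 and Ankrd1 were dim, at percentiles 24.5 and 34.6 of mean signal over all genes, and signal over background was not measured here.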
